A study of Homo sapiens with 32 samples.

Results

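The comparison set irradiated MCF10A cells that lacked cGAS or STING against untreated wild-type (WT) MCF10A cells. MCF10A cells come from human breast epithelium and are not transformed; here they grew in medium with horse serum, EGF, hydrocortisone, cholera toxin and insulin. Members were set by their labels, with earlier results of these data known. They were 2 libraries of cGAS knockout (KO) cells and 2 of STING KO cells, each collected 5 days after 10 Gy. With 2 libraries of untreated WT cells, these make 6 of the 32 libraries of the series. The 4 knockout libraries were pooled with equal weight for each line. Irradiated WT cells at 5 days after 10 Gy (2 libraries, with DMSO as vehicle) were used as a further reference, and the labels name no vehicle for the knockout or untreated cells.

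The knockout lines were made with CRISPR-Cas9 delivered by the lentiviruses LentiCas9-blast and LentiGuide-Puro, with blasticidin and puromycin selection, and were grown up from single cells, so each line is 1 clone. The WT cells are not labelled as carrying Cas9 or a guide. No unirradiated knockout library was measured, so radiation and line differ together between the groups and cannot be told apart in the comparison with untreated WT. Whether paired libraries stem from independent cultures is not labelled, so p-values measure only the spread between these libraries, which may be technical. RNA was polyadenylated and bulk: fewer cells that express a gene and less of its RNA per cell cannot be told apart.

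As background, cGAS is a sensor that binds DNA in the cytosol, such as the DNA of micronuclei that form when broken chromosomes are carried through mitosis, and makes the messenger cGAMP. STING binds cGAMP at the endoplasmic reticulum and, through the kinase TBK1 and the factor IRF3, turns on interferons, whose receptors then turn on interferon-stimulated genes. DNA breaks also activate p53, which turns on cell-cycle inhibitors, by a route that does not pass through cGAS or STING. Levels are CPM, the usual depth-scaled read count, here scaled by library total and a TMM factor. Changes are log2 fold changes from edgeR's quasi-likelihood test. Values after ± are approximate standard errors (SE), the size of the change divided by the square root of the test's F statistic. A gene is said to rise or fall where its p was below 0.05 after Benjamini-Hochberg adjustment across every tested gene.

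The 6 libraries held 9455027 to 16595879 estimated counts each. The libraries of a group did not stand equally close: the chi-square between them, per gene, was 2.95 in the cGAS KO pair, 27.6 in the STING KO pair, 35.0 in the untreated pair and 32.8 in the irradiated WT pair. Untreated replicate 1 was lower than replicate 2 in the mean log2 CPM of 45 G2-M and mitotic genes (2.75 against 4.43), and its summed mesenchymal and extracellular matrix genes stood at 1911 CPM against 5211. Irradiated WT replicate 1 was higher than replicate 2 in the mean log2 CPM of 53 interferon-stimulated genes (8.12 against 6.57). Summed basal epithelial markers ran from 12860 to 35480 CPM in the 6 libraries, while PTPRC, which marks blood cells, had at most 4 counts in each.

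The targeted genes followed the labels at the RNA level. MB21D1, the gene of cGAS (6:74078278-74161999 on hg19, an interval that the count table shares among 8 genes), stood at 19.8 and 14.6 CPM in untreated WT, 1.24 and 1.30 in cGAS KO, and 14 and 11.1 in STING KO. TMEM173, the gene of STING (5:138855119-138862520), stood at 33.4 and 47.9 CPM in untreated WT, 9.97 and 9.16 in STING KO, and 63.5 and 66.0 in cGAS KO. Each targeted gene was thus low in its own knockout line, without overlap with the other groups. RNA left in a knockout line can come from the edited gene.

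Of 15190 genes tested, 3348 (22.0%) rose and 3526 (23.2%) fell in the irradiated knockouts against untreated WT. A change of at least 2-fold was seen in 1383 of the higher and 1388 of the lower genes, and one of at least 8-fold in 348 and 248. Over all genes, all 4 knockout libraries were above both untreated ones for 29.3% and below for 29.8%, and the median change was -0.03. With limma on log2(FPKM + 1) 1670 were higher and 3203 lower, and the changes of all genes shifted by a median of -0.14 from those of edgeR. Taken 1 line at a time, 2831 genes (18.6%) rose and 2787 (18.3%) fell in cGAS KO, and 2934 (19.3%) rose and 2830 (18.6%) fell in STING KO; limma gave 1288 and 2344 in the former and 1354 and 2557 in the latter. The total of 5618 called in cGAS KO became 2911 without cGAS KO replicate 1 and 3119 without replicate 2, and the 5764 of STING KO became 3603 without STING KO replicate 1. The 2 lines share the untreated libraries, so their values are given side by side only.

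**Figure D1:**
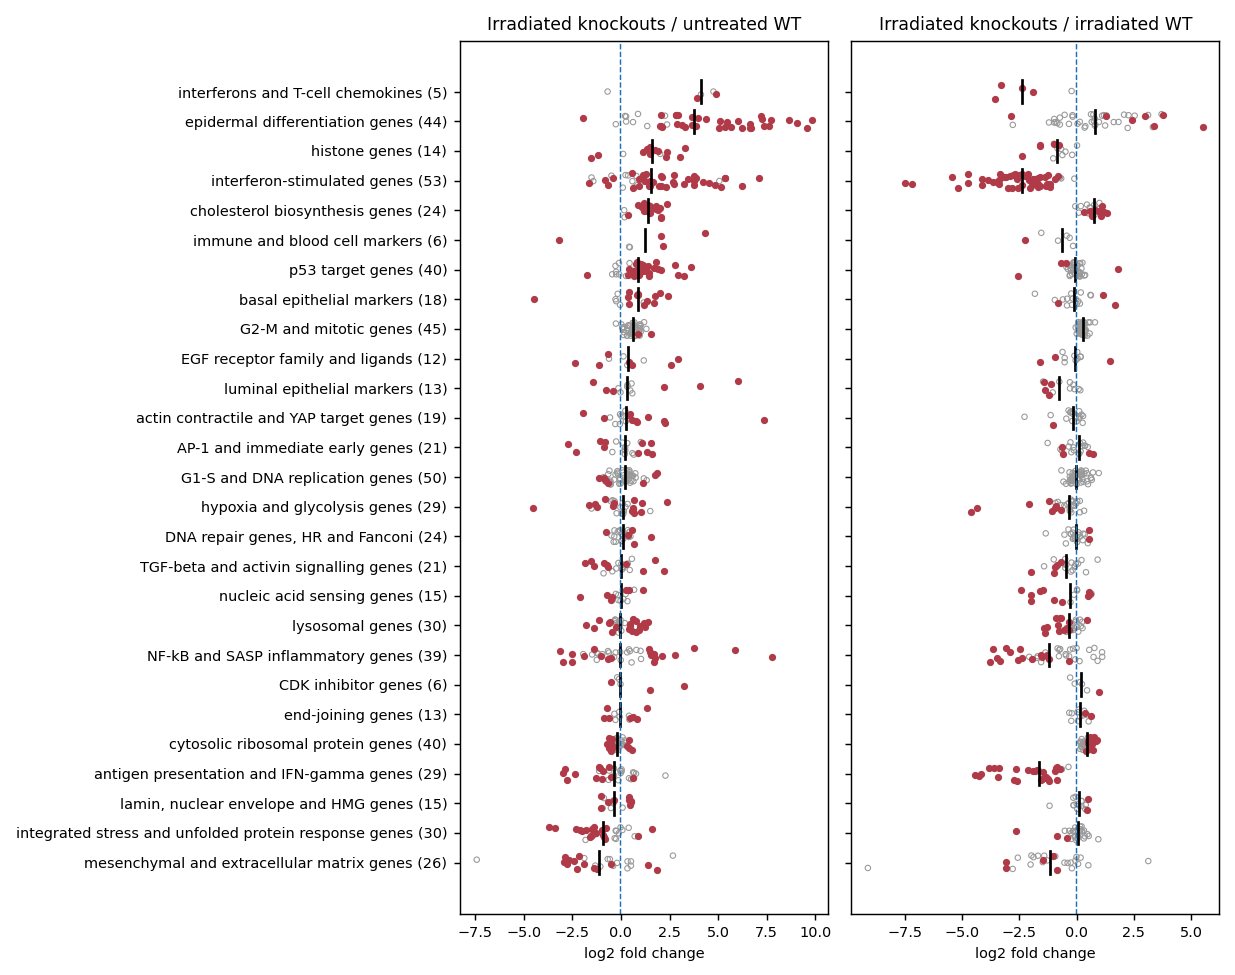
Log2 fold change (x axis) of the tested members of each gene list (rows, number of tested members in brackets) in the 4 irradiated knockout libraries against 2 untreated WT libraries (left) and against 2 irradiated WT libraries (right). Each point is 1 gene, filled where the adjusted p was below 0.05 and open where not, black bars are list medians and the dashed line is the median of all genes; interferon-stimulated genes have a median of 1.52 on the left and -2.38 on the right, cholesterol biosynthesis genes 1.41 and 0.74.

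Genes activated by p53 were higher in both irradiated knockout lines. Of 40 p53 target genes tested, 31 rose, 1 fell and 8 did not pass, where 22.0% of all genes rose and 23.2% fell. The list's median was 0.87 against -0.03 for all genes. CDKN1A encodes p21, the inhibitor that holds cyclin-dependent kinases and stops the cycle (6:36644237-36655116 on hg19). It stood at 162 and 115 CPM in untreated WT, 1286 and 1210 in cGAS KO, and 1406 and 1298 in STING KO, a change of 3.23 ± 0.20 (edgeR adjusted p = 7.5e-06). All 4 knockout libraries were above both untreated ones and lay near the 1243 and 970 CPM of irradiated WT. TP53INP1, which promotes p53 phosphorylation, rose by 2.78 ± 0.13, and MDM2, the ligase that degrades p53, rose from 215 and 166 to between 607 and 650 CPM. FAS, a death receptor, rose by 0.68 ± 0.11, ACER2, a ceramidase of the Golgi, by 2.95 ± 0.34 and the decoy receptor gene TNFRSF10C by 3.59 ± 0.42. GDF15, a secreted stress cytokine, was the member that fell: 90.6 and 47.0 CPM in untreated WT and 12 to 26.1 in the knockouts. That call was lost without untreated replicate 1 (adjusted p = 0.068). Of 6 CDK inhibitor genes, CDKN1A and CDKN2D rose (CDKN2D by 1.52 ± 0.29), where 22.0% of all genes rose and 23.2% fell. CDKN1B, which encodes p27, fell by 0.50 ± 0.14, a call lost without untreated replicate 2 (0.25) and without cGAS KO replicate 2 (0.052), with the 4 knockout libraries as 1 group (0.052) and with only the groups compared (0.055).

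**Figure D2:**
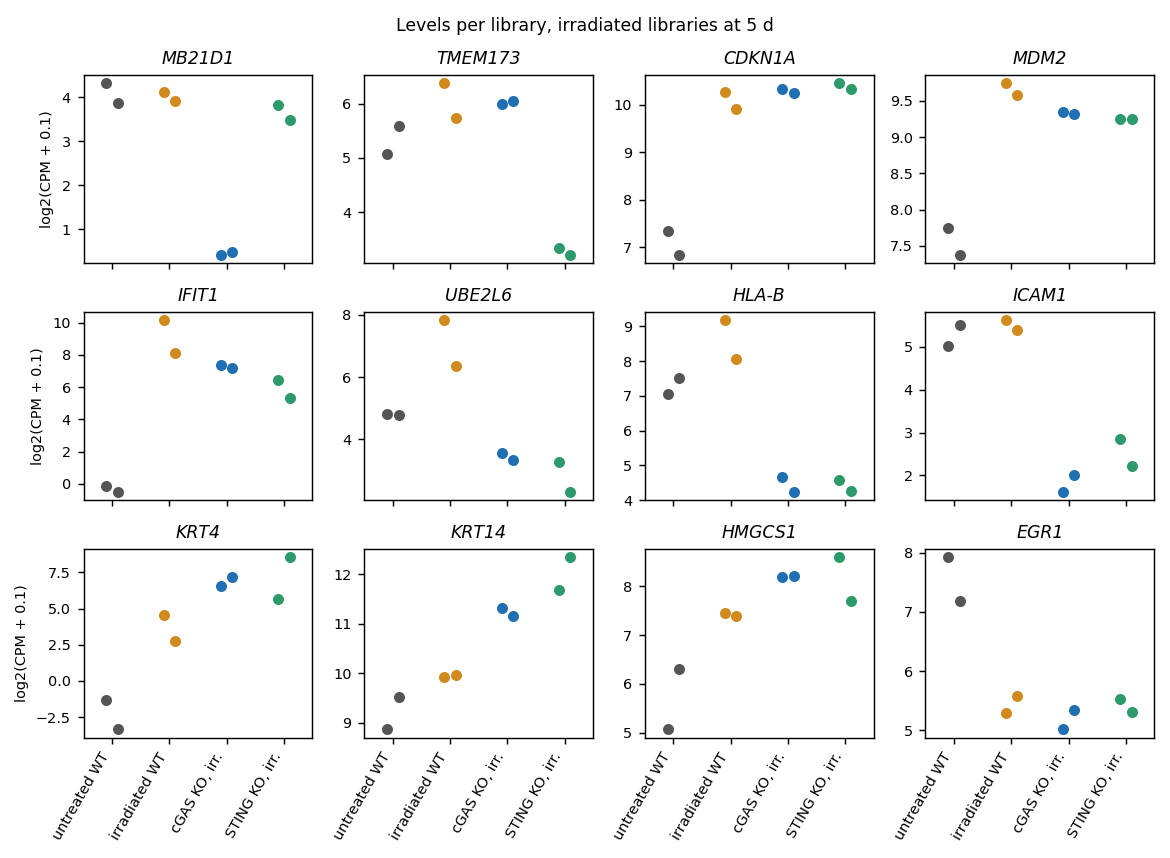
Level of 12 genes in each library as log2(CPM + 0.1) (y axis) in untreated WT, irradiated WT with DMSO, irradiated cGAS KO and irradiated STING KO cells (x axis), 1 point per library, irradiated cells at 5 days. CDKN1A reached 1210 to 1406 CPM in the knockouts and 970 and 1243 in irradiated WT, while IFIT1 stood at 40.8 to 166 in the knockouts and 279 and 1138 in irradiated WT.

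Against irradiated WT, the p53 targets differed little: of the 40, 1 was higher (0 without irradiated WT replicate 1 and 2 without STING KO replicate 1) and 3 were lower in the knockouts, where over all genes 9.16% were higher and 10.3% lower. The list's median there was -0.07. CDKN1A differed by 0.23 ± 0.17 (adjusted p = 0.38) and MDM2 by -0.38 ± 0.13 (0.065). GDF15 was lower by -2.55 ± 0.36, and irradiated WT held 157 and 86.5 CPM of it. TNFRSF10C was higher by 1.80 ± 0.35, a call lost without irradiated WT replicate 1 (0.063). That vehicle was named for irradiated WT alone, and its part in this comparison was not tested.

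Few genes of the cell cycle were called, and how many depended on which untreated library was kept. Of 45 G2-M and mitotic genes, 2 rose and 43 did not pass, with a median of 0.64, where 22.0% of all genes rose. For 14 of the 45 the 4 knockout libraries lay above both untreated ones, near the 29.3% of all genes. INCENP, a scaffold of the chromosomal passenger complex, went from 13.5 and 20.8 CPM to between 41.2 and 53.4, and ECT2, which drives cytokinesis, from 20.2 and 39.3 to between 47.6 and 57.1. The ECT2 call was lost without untreated replicate 1 (adjusted p = 0.14) or STING KO replicate 1 (0.052) and with limma (0.13). Without untreated replicate 2 the count of risen members was 31, and without untreated replicate 1 or STING KO replicate 1 it was 1. CDK1, the kinase that starts mitosis, stood at 5.64 and 29 CPM in untreated WT and 23.3 to 34.4 in the knockouts, and CCNB1, its cyclin, at 17.1 and 54.3 against 42.6 to 53.3. Neither passed (adjusted p = 0.33 and 0.41), and the groups overlapped.

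Of 50 G1-S and replication genes, 3 rose and 5 fell, below the shares of all genes (22.0% and 23.2%). E2F7, a repressor of E2F targets, rose by 1.76 ± 0.38, and CCNE1, the cyclin of S phase entry, by 1.12 ± 0.28, while MCM6, a subunit of the replicative helicase, fell by 1.13 ± 0.25 on the log2 scale and TIPIN, which protects stalled forks, by 0.79 ± 0.18. CCNE1 was lost without untreated replicate 1 (adjusted p = 0.078) or with limma (0.10), and MCM6 without untreated replicate 2 (0.067). The counts became 14 higher and 1 lower without untreated replicate 2, 1 higher without replicate 1, and 3 lower without cGAS KO replicate 1 or STING KO replicate 2. RRM2, the ribonucleotide reductase subunit, stood at 7.47 and 36.0 CPM in untreated WT and 35.9 to 73.4 in the knockouts. MKI67, the proliferation marker, stood at 23.6 and 69.9 against 73.4 to 110, and did not pass (0.12).

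Among 13 end-joining genes 4 rose and 3 fell, near the shares of all genes. LIG4, the ligase that seals breaks, rose by 0.85 ± 0.13, while POLL, a gap-filling polymerase, fell by 0.87 ± 0.10 on the log2 scale and NHEJ1, which encodes the scaffold XLF, by 0.71 ± 0.16. NHEJ1 had an adjusted p of 0.051 without untreated replicate 1. Of 24 homologous recombination and Fanconi genes 4 rose and 1 fell, and 2 rose without untreated replicate 1 or cGAS KO replicate 2. Over all genes 22.0% rose and 23.2% fell. NBN, a member of the complex that binds break ends, stood at 74.3 and 60.5 CPM in untreated WT, 98.2 to 104 in the knockouts and 72.7 and 65.3 in irradiated WT. It was higher than in untreated WT by 0.59 ± 0.10 and than in irradiated WT by 0.56 ± 0.10, the latter lost without irradiated WT replicate 2 (0.058) and with limma (0.23).

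Most histone genes rose, and single genes of lamins and HMG proteins are given beside them. Of 14 histone genes with reads in poly-A RNA, 10 rose and 2 fell, where 22.0% of all genes rose and 23.2% fell. The list's median was 1.62, and 5 members rose without untreated replicate 1. HIST1H4H, a core histone gene, went from 0.220 and 0.910 CPM to between 4.79 and 5.78. HIST2H2BE went from 3.00 and 3.74 to between 8.14 and 10.4, against 38.1 and 18.3 in irradiated WT, and had an adjusted p of 0.053 without untreated replicate 1. H1F0, a linker histone of non-dividing cells, fell from 54.9 and 37.0 to between 12.6 and 21.5 CPM. Against irradiated WT 5 of the 14 were lower and 9 did not pass, where 10.3% of all genes were lower. The list's median there was -0.85, and 0 members were lower without irradiated WT replicate 1. Without cGAS KO replicate 1, cGAS KO replicate 2 or STING KO replicate 1, 3 were lower.

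Of 15 lamin, nuclear envelope and HMG genes, 5 rose and 4 fell, where 22.0% of all genes rose and 23.2% fell. LBR, which tethers heterochromatin to the envelope, fell by 1.00 ± 0.14 on the log2 scale and HMGA1, a chromatin protein, by 1.02 ± 0.14. LMNA, the gene of lamin A and C, rose by 0.54 ± 0.11, and HMGA2 rose as well. LMNB1, the B-type lamin often used as a senescence marker, stood at 8.49 and 31.4 CPM in untreated WT and 12.4 to 17.1 in the knockouts (adjusted p = 0.56). The counts became 2 higher and 8 lower without untreated replicate 1, and 3 higher without untreated replicate 2.

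Many interferon-stimulated genes were higher in the irradiated knockouts than in untreated WT, and nearly all were lower than in irradiated WT. Of 53 tested, 34 rose, 4 fell and 15 did not pass, where 22.0% of all genes rose and 23.2% fell. The list's median was 1.52, or 1.49 with genes at 0 counts set to their bound. IFIT1, which binds foreign RNA caps (in the interval 10:90973326-91174314 on hg19, shared among 8 genes), stood at 0.805 and 0.607 CPM in untreated WT, 166 and 144 in cGAS KO, 88.5 and 40.8 in STING KO, and 1138 and 279 in irradiated WT. The knockout libraries lay above both untreated and below both irradiated WT libraries. Its change was 7.10 ± 1.25 against untreated WT (edgeR adjusted p = 0.0018) and -2.82 ± 0.68 against irradiated WT (0.019), the latter lost without irradiated WT replicate 1 (-1.47, 0.28), cGAS KO replicate 1 (0.070), cGAS KO replicate 2 (0.077) or STING KO replicate 2 (0.066), and with limma (0.062).

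ISG15, a ubiquitin-like modifier, stood at 2.63 and 3.44 CPM in untreated WT, 66.3 and 57.8 in cGAS KO, 37.5 and 13.9 in STING KO, and 567 and 151 in irradiated WT. IFI27 rose by 6.25 ± 1.26 and IFI6, an inhibitor of apoptosis at mitochondria, by 5.36 ± 1.00. The ISG15 call was lost without untreated replicate 1 (adjusted p = 0.060). In the cGAS KO libraries 36 members rose and 2 fell, and in the STING KO libraries 25 rose and 4 fell, with medians of 1.92 and 1.35. The 34 risen members became 20 without untreated replicate 1 and 22 without untreated replicate 2, and the 4 that fell became 2 without untreated replicate 2 or cGAS KO replicate 2.

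Not every member followed. MX1, a GTPase that blocks viruses, stood at 2.63 and 1.52 CPM in untreated WT, 3.52 and 3.38 in cGAS KO, 0.863 and 0.445 in STING KO, and 355 and 88.3 in irradiated WT. Its difference was -0.49 ± 1.19 from untreated WT (adjusted p = 0.76) and -7.18 ± 0.86 from irradiated WT (9.1e-04). LAMP3, a lysosomal membrane protein of mature dendritic cells, was at 0.0889 to 1.42 CPM in the knockouts and at 154 and 24.1 in irradiated WT. UBE2L6, the enzyme that conjugates ISG15, fell from 28.2 and 27.3 CPM to between 4.89 and 11.6, while irradiated WT held 227 and 82.6. IFITM3, an inhibitor of viral entry, fell by 0.82 ± 0.23 on the log2 scale, TRIM25, a ligase of RIG-I signalling, by 0.66 ± 0.16 and IFI16, a nuclear DNA sensor, by 0.41 ± 0.15. The IFITM3 call was lost without untreated replicate 2 (0.24) or cGAS KO replicate 2 (0.052), and the IFI16 call without any 1 of the 6 libraries (0.059 to 0.15).

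Against irradiated WT, 49 of the 53 interferon-stimulated genes were lower and 4 did not pass, with a median of -2.38 and 10.3% of all genes lower. Without irradiated WT replicate 1, in which these genes were high, 19 were lower. Irradiated XRCC4 KO cells at 5 days, another knockout line, had a mean log2 CPM of 4.31 and 4.34 for this list. The cGAS and STING KO libraries stood at 4.22 to 5.49 and irradiated WT at 8.12 and 6.57. The level below irradiated WT was thus not particular to the cGAS and STING KO lines. Of 5 interferon and T-cell chemokine genes tested, 2 rose against untreated WT, where 22.0% of all genes rose. These were CXCL10 and CCL5, both attractants of T cells. CXCL10 had 1 count in untreated WT and 1.42 to 1.6 CPM in the knockouts, a ratio of 35.5 (95% counting interval 6.19 to 1421). CCL5 had 2 counts in untreated WT and 0.519 to 3.69 CPM in the knockouts, a ratio of 18.7 (5.01 to 157). CXCL10 was lost without either untreated replicate (adjusted p = 0.066 and 0.079) and CCL5 without untreated replicate 2 (0.087), and both with limma (0.077 and 0.071). Against irradiated WT 4 of the 5 were lower, with 0 without irradiated WT replicate 1, 1 without cGAS KO replicate 1, and 2 without cGAS KO replicate 2 or STING KO replicate 2.

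Promoters of 43 interferon-stimulated genes were matched by symbol to RefSeq sequences (GRCh38.p14, 250 bases before to 50 after the start), and 25 of them (58.1%) hold the core of the interferon-stimulated response element (TTTC, any 2 bases, TTTC, on either strand, which reads as GAAA, any 2 bases, GAAA from the other), against 3.65% of all 27305 promoters. The element was in 14 of 25 promoters of risen members, in 1 of 4 of those that fell, and in 9 of 13 that did not pass. Stretches around it are shown, 5′ to 3′ on the gene's strand with the element in capitals, for 4 genes that rose and for 2 antiviral or antigen-processing genes that did not (IFITM3 fell and TAP1 did not pass). 
IFIT1: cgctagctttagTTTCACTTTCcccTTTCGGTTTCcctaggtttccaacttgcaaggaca
ISG15: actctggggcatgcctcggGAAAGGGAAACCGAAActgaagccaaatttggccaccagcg
IFI27: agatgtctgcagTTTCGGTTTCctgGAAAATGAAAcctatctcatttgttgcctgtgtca
IFI6: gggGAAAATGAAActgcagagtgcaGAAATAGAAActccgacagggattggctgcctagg
IFITM3: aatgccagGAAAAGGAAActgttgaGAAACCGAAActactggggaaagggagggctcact
TAP1: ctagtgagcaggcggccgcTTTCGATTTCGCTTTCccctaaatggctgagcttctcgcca

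These stretches lie at chr10:89392495-89392554 (plus strand) for IFIT1, chr1:1013365-1013424 (plus) for ISG15, chr14:94110616-94110675 (plus) for IFI27 and chr1:27672251-27672310 (minus) for IFI6. Those of IFITM3 and TAP1 lie at chr11:320861-320920 and chr6:32853798-32853857, both on the minus strand. The printed match nearest the start lies 25 bases before it in IFITM3 and 83 to 118 bases before it in the other 5. Each stretch holds 2 matches, which overlap in ISG15 and TAP1 and are capitalised there as 1 run. A match describes letters in these windows and does not show that a factor binds there.

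Antigen presentation genes did not follow the interferon-stimulated ones. Of 29 antigen presentation and interferon-gamma genes, 1 rose and 11 fell against untreated WT, where 22.0% of all genes rose and 23.2% fell. The list's median was -0.35. HLA-B, a class I chain that shows peptides to T cells, stood at 132 and 185 CPM in untreated WT, 18.8 to 25.4 in the knockouts, and 580 and 270 in irradiated WT, a change of -2.86 ± 0.31 (edgeR adjusted p = 1.3e-04). The 4 knockout libraries lay below all untreated and irradiated WT libraries. HLA-C, another class I chain, did not differ from untreated WT by more than its error (0.03 ± 0.25), and B2M, the shared light chain, stood at 410 and 791 against 327 to 434 CPM (adjusted p = 0.063, and 0.0071 without untreated replicate 1). HLA class I genes are near copies of each other, so reads may be split among them.

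PSMB9, a subunit of the immunoproteasome, fell by 2.36 ± 0.51 on the log2 scale, GBP2, an interferon-induced GTPase, by 2.98 ± 0.40 and CIITA, the activator of class II genes, by 2.77 ± 0.64, the last lost without untreated replicate 1 (0.056). TAP2, which pairs with TAP1 in the peptide transporter, rose by 0.64 ± 0.18, a call lost without untreated replicate 2 (0.15). Against irradiated WT 26 of the 29 were lower and 3 did not pass, with a median of -1.66, where 10.3% of all genes were lower. The list's mean log2 CPM was 3.41 to 3.69 in the knockouts and 5.90 and 5.08 in irradiated WT. It was 3.28 and 3.20 in irradiated XRCC4 KO cells at 5 days, so the low level was not particular to the cGAS and STING KO lines. Of 15 nucleic acid sensing genes 3 rose and 4 fell, near the shares of all genes (22.0% and 23.2%), the 2 targets among the latter. TMEM173 fell by 0.70 ± 0.18 on the log2 scale over both lines, with 0.67 in cGAS KO and -2.08 in its own knockout, and the pooled call was lost without untreated replicate 2 (adjusted p = 0.13) and with the 4 knockout libraries as 1 group (0.92; 0.28 for MB21D1). RNASEH2C, a subunit of the enzyme that removes ribonucleotides from DNA, rose by 1.14 ± 0.19. SAMHD1, which breaks down nucleotides, and TLR3, a sensor of double-stranded RNA, were lower than in irradiated WT by -2.44 ± 0.33 and -1.99 ± 0.28 and did not pass against untreated WT (0.16 and 0.97). The counts became 1 higher without untreated replicate 2, cGAS KO replicate 1, cGAS KO replicate 2 or STING KO replicate 1, and 2 lower without untreated replicate 1, untreated replicate 2, cGAS KO replicate 2 or STING KO replicate 1.

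Of 39 inflammatory genes of NF-kB and of the secretory phenotype of senescent cells, 11 rose and 9 fell, with a median of -0.04. These counts are near the shares of all genes (22.0% and 23.2%), so the list as a whole did not stand apart, and single members are described. SERPINB2, an inhibitor of plasminogen activation, stood at 0.952 and 0.708 CPM in untreated WT, 140 and 132 in cGAS KO, 280 and 243 in STING KO, and 119 and 54.4 in irradiated WT. MMP10, a matrix protease, had 3 counts in untreated WT and 1.36 to 2.67 CPM in the knockouts, a ratio of 14.6 (counting interval 4.84 to 71.9), and IL1B, an inflammatory cytokine, rose by 1.72 ± 0.46, lost without untreated replicate 2 (adjusted p = 0.11).

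Other members were lower. ICAM1, an adhesion molecule for leukocytes, stood at 32.2 and 45.6 CPM in untreated WT, 2.97 and 3.90 in cGAS KO, 7.06 and 4.53 in STING KO, and 49.0 and 42.0 in irradiated WT. It was lower in all 4 knockout libraries than in any other of these libraries, by -3.12 ± 0.23 against untreated WT (1.7e-05) and -3.35 ± 0.23 against irradiated WT (2.8e-05). CSF1, a macrophage growth factor, and CCL20, a chemokine, fell by 2.97 ± 0.40 and 2.52 ± 0.27 on the log2 scale. CXCL8, the neutrophil chemokine, stood at 10.8 and 58.4 CPM in untreated WT and 8.62 to 21.0 in the knockouts (0.26), and IL6 at no more than 1.21 CPM in any of the 6. The 11 risen members became 6 without either untreated replicate and 7 without cGAS KO replicate 1. Against irradiated WT 15 were lower and 24 did not pass, where 10.3% of all genes were lower. The 15 became 5 without irradiated WT replicate 2 and 9 without either cGAS KO replicate.

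**Figure D3:**
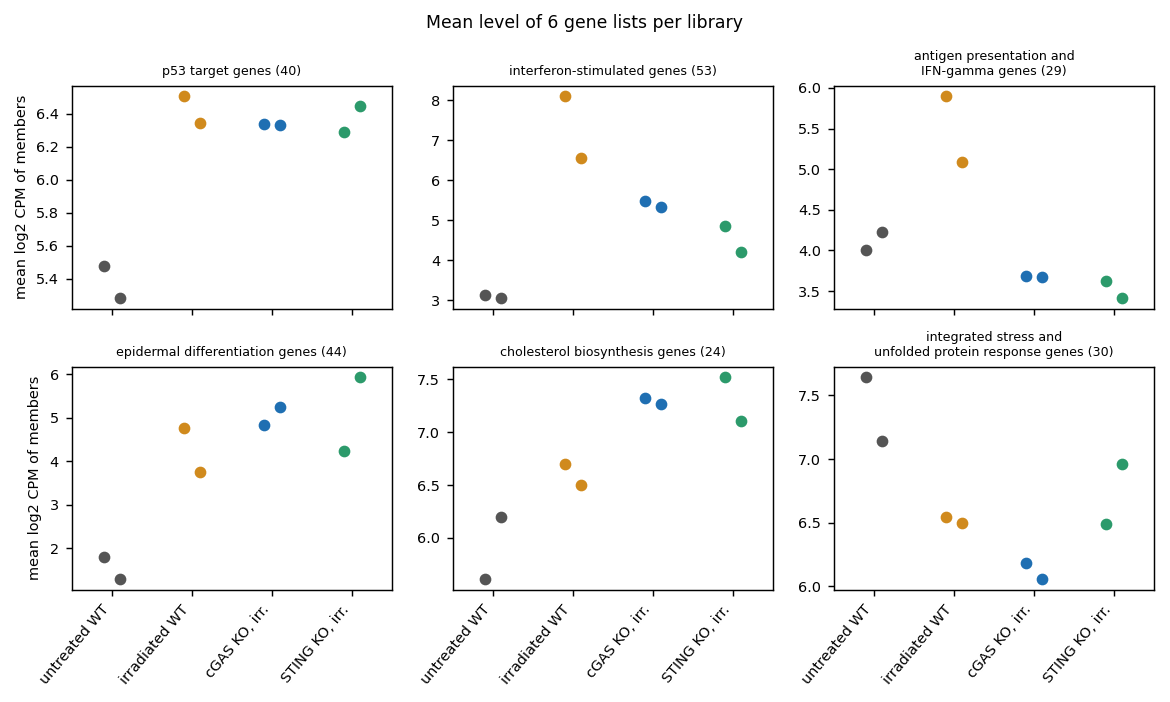
Mean log2 CPM of the tested members of 6 gene lists (y axis, number of members in brackets) in each library of untreated WT, irradiated WT with DMSO, irradiated cGAS KO and irradiated STING KO cells (x axis), 1 point per library. Interferon-stimulated genes stood at 3.05 and 3.14 in untreated WT, 4.22 to 5.49 in the knockouts and 6.57 and 8.12 in irradiated WT, and cholesterol biosynthesis genes at 5.61 and 6.20, 7.11 to 7.52 and 6.5 and 6.70.

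Genes of epidermal differentiation, which keratinocytes turn on as they leave the basal layer, were mostly higher in the knockouts. Of 44 tested, 34 rose, 1 fell and 9 did not pass, where 22.0% of all genes rose and 23.2% fell. The list's median was 3.75. KRT4, a keratin of stratified epithelia (12:53200333-53208335 on hg19), stood at 0.293 and 0 CPM in untreated WT, 94.7 and 145 in cGAS KO, 50.8 and 373 in STING KO, and 23.8 and 6.76 in irradiated WT. SPRR3, a cornified envelope protein, had 2 counts in untreated WT and 25.2 to 170 CPM in the knockouts, a ratio of 826 (counting interval 228 to 6820). IVL, the envelope protein involucrin, went from 0.805 and 0.607 CPM to between 34.9 and 149, without overlap.

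FLG, the filaggrin precursor of the outer epidermis, and KRT24 had 0 counts in untreated WT and 257 and 543 counts in the knockouts. Against a floor of 3 counts over the untreated group they were at least 39.0-fold and 82.4-fold higher. KRT10, a keratin of the suprabasal layer, stood at 68.7 and 45.7 CPM in untreated WT and 27.2 to 92.9 in the knockouts and did not pass (adjusted p = 0.76). SERPINB4, a squamous serpin, fell by 1.93 ± 0.68 on the log2 scale, a call lost without untreated replicate 2 (0.61), either cGAS KO replicate (0.11 and 0.088) or STING KO replicate 1 (0.12), with a replicate block (0.064), with DESeq2 (0.051) and with limma (0.055). STING KO replicate 2 was the highest knockout library for KRT4, SPRR3, IVL and KRT24.

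The 34 risen epidermal genes became 15 without untreated replicate 1 and 13 without untreated replicate 2. Against irradiated WT 6 of the 44 were higher and 1 lower, with a median of 0.80. Over all genes 9.16% were higher and 10.3% lower there. KRT4 was higher by 3.39 ± 1.01 and KRT6C, a keratin of stressed epidermis, by 3.76 ± 0.94, but both calls were lost without either irradiated WT replicate (KRT4 0.11 and 0.26, KRT6C 0.15 for each) or either cGAS KO replicate (KRT4 0.081 and 0.10, KRT6C 0.053 and 0.055). KRT4 also had an adjusted p of 0.092 without STING KO replicate 2, 0.066 with a replicate block, 0.066 with limma and 0.092 with only the groups compared. That count of 6 was 0 without either irradiated WT replicate, 2 without cGAS KO replicate 1 or STING KO replicate 2, 1 without cGAS KO replicate 2 and 10 without STING KO replicate 1.

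Basal keratins rose with them. Of 18 basal epithelial markers 12 rose and 1 fell, where 22.0% of all genes rose and 23.2% fell. The list's median was 0.85, and 6 members rose without untreated replicate 2. KRT14 and KRT5 are the keratin pair of basal cells. KRT14 (17:39738531-39743173 on hg19) stood at 471 and 738 CPM in untreated WT, 2572 and 2298 in cGAS KO, 3292 and 5199 in STING KO, and 977 and 1004 in irradiated WT. KRT5 stood at 2318 and 2284 in untreated WT, 8659 to 10610 in the knockouts, and 4606 and 3849 in irradiated WT. For both, the 4 knockout libraries were above all untreated and irradiated WT libraries, with changes of 2.41 ± 0.33 and 2.03 ± 0.14 against untreated WT. Against irradiated WT KRT5 was higher by 1.15 ± 0.13 (edgeR adjusted p = 4.5e-04) and KRT14 by 1.70 ± 0.32 (0.0054), with 0.054 and 0.050 for KRT14 without irradiated WT replicate 1 or 2. COL17A1, a collagen of hemidesmosomes, rose by 1.71 ± 0.16 and did not differ from irradiated WT by more than its error (0.00 ± 0.14). NGFR, a receptor of basal and neural cells, fell from 6.59 and 2.93 to between 0.0866 and 0.445 CPM.

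Markers of other cell types were read beside these. Of 13 luminal markers 3 rose and 3 fell (1 fell without untreated replicate 1), near the shares of all genes, among them KRT18, a luminal keratin, which fell by 0.42 ± 0.11 on the log2 scale (0.057 without untreated replicate 1), and EPCAM, an epithelial adhesion molecule, by 1.43 ± 0.33. CLDN4, a tight junction protein, went from 4.03 and 4.04 to between 46.7 and 94.6 CPM, lost without either untreated replicate (0.13 and 0.11). Of 26 mesenchymal and extracellular matrix genes 2 rose (TNC and TAGLN) and 11 fell, where 22.0% of all genes rose and 23.2% fell. LOX, which crosslinks collagen, went from 60.2 and 172 to between 13.7 and 17.9 CPM, and COL6A1 fell by 2.42 ± 0.37. Without untreated replicate 2, in which these genes were high, 2 fell; 6 fell without cGAS KO replicate 1 or STING KO replicate 1 and 7 without cGAS KO replicate 2 or STING KO replicate 2, and 0 rose without untreated replicate 1, either cGAS KO replicate or STING KO replicate 1. Summed over the 32 found, their level was 1911 and 5211 CPM in untreated WT, 2162 to 3565 in the knockouts, and 2474 and 7315 in irradiated WT.

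Of 26 immune and blood cell genes 6 were tested and 8 had 0 counts in all 6 libraries, and their summed level was 113 and 124 CPM in untreated WT and 67.9 to 77.7 in the knockouts. CD14, a receptor for bacterial lipopolysaccharide, made up most of the sum in untreated WT, at 78.5 and 75.8 CPM. In the knockouts it stood at 5.89 to 11.0 CPM, a change of -3.19 ± 0.32, and other members made up most of the sum. ITGAM and CSF1R, both myeloid receptors, rose by 2.19 ± 0.42 and 2.04 ± 0.49, from no more than 2.85 CPM, with CSF1R lost without untreated replicate 2 (0.054) and ITGAM with limma (0.18). The summed level of 9 endothelial genes was 2.12 to 6.04 CPM in the 6 libraries. The part of any such cells in the results was not tested.

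Enzymes of cholesterol synthesis rose as a group. The pathway joins acetyl-CoA units to mevalonate and squalene and closes the sterol rings, and is driven by the SREBP factors when sterols are low. Of 24 tested 21 rose and 3 did not pass, with a median of 1.41, where 22.0% of all genes rose. For all 24 the 4 knockout libraries lay above both untreated ones, against 29.3% of all genes. HMGCS1, which makes HMG-CoA (in the interval 5:43287703-43313614 on hg19, shared by 2 genes), stood at 33.6 and 79.0 CPM in untreated WT, 291 and 295 in cGAS KO, 386 and 208 in STING KO, and 176 and 168 in irradiated WT, a change of 2.40 ± 0.52 (edgeR adjusted p = 0.0053). IDI1, an isomerase, rose by 2.06 ± 0.41, FDPS, which makes farnesyl pyrophosphate, by 2.05 ± 0.37, and MVD, a decarboxylase, by 2.00 ± 0.39. Later steps rose as well: CYP51A1, a sterol demethylase, by 1.30 ± 0.17 and DHCR7, which makes the last reduction, by 1.79 ± 0.26. The count ran from 19 to 21 when 1 library was left out.

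Against irradiated WT 9 of the 24 were higher and 15 did not pass, with a median of 0.74, where 9.16% of all genes were higher. CYP51A1 stood at 261 to 317 CPM in the knockouts against 150 and 122 in irradiated WT and 105 and 132 in untreated WT, a difference of 1.11 ± 0.17 from irradiated WT (0.0016). DHCR7 stood at 269 to 383 CPM against 144 and 140, a difference of 1.19 ± 0.25 with adjusted p of 0.070 and 0.079 without either irradiated WT replicate. The count of 9 became 3 without irradiated WT replicate 1, 1 without replicate 2, and 5 without cGAS KO replicate 1 or STING KO replicate 1.

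Of 18 cholesterol genes with a RefSeq promoter 15 (83.3%) hold a CCAAT box, CCAAT on either strand, against 35.7% of all promoters. Among risen members it was in 14 of 16. Windows of 3 risen enzymes are shown with the box in capitals, which reads ATTGG where it lies on the other strand: HMGCS1 at chr5:43313483-43313537 (minus strand), FDPS at chr1:155308790-155308844 (plus) and MVD at chr16:88663147-88663201 (minus), on GRCh38.p14. They place the box 95, 46 and 80 bases before the start.
HMGCS1: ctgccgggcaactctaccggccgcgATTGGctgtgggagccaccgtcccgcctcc
FDPS: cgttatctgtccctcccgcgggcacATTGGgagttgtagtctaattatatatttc
MVD: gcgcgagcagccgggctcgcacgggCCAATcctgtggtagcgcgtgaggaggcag

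Genes of the integrated stress and unfolded protein responses were lower than in untreated WT. Of 30 tested 2 rose and 17 fell, with a median of -0.94, where 22.0% of all genes rose and 23.2% fell. PHGDH, which starts serine synthesis (1:120191034-120286849 on hg19), stood at 206 and 125 CPM in untreated WT, 7.54 and 6.32 in cGAS KO, 4.0 and 41.8 in STING KO, and 14.6 and 16.7 in irradiated WT. STING KO replicate 2 stood apart from the other 3 knockout libraries and still lay below both untreated ones. VLDLR, a lipoprotein receptor, fell by 3.36 ± 0.56 on the log2 scale, TRIB3, a pseudokinase, by 1.98 ± 0.43, ERN1, the sensor IRE1 of unfolded proteins, by 1.37 ± 0.19, and CEBPB, a transcription factor, by 0.97 ± 0.09. TRIB3 was lost without untreated replicate 1 (adjusted p = 0.083). The 17 became 9 without untreated replicate 1 and 11 without cGAS KO replicate 2, and the 2 that rose became 1 without any library but STING KO replicate 2, whose absence gave 4. Against irradiated WT 3 were lower, near the 10.3% of all genes, and 27 did not pass. The count of lower members was 0 without irradiated WT replicate 2 and 5 without STING KO replicate 1.

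Of 29 hypoxia and glycolysis genes 8 rose and 7 fell, near the shares of all genes (22.0% and 23.2%). ADM, a vasodilator peptide, went from 4.54 and 9.30 to between 31.7 and 40.1 CPM and LDHA, lactate dehydrogenase, rose by 1.04 ± 0.22, while PDK1, a brake on pyruvate oxidation, fell by 1.32 ± 0.17 on the log2 scale. CA9, a carbonic anhydrase of hypoxic cells, stood at 0.157 to 3.21 CPM in the knockouts and 32.6 and 43.5 in irradiated WT, a difference of -4.37 ± 0.82, and 1.68 and 9.10 in untreated WT. The counts became 5 higher without untreated replicate 1, 3 lower without untreated replicate 2 or cGAS KO replicate 1, and 4 lower without cGAS KO replicate 2 or STING KO replicate 1.

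Lysosomal genes also moved both ways, with 12 of 30 risen and 7 fallen and a median of -0.03. Over all genes 22.0% rose and 23.2% fell, so the fallen were near their share. MCOLN1, a calcium channel of the lysosome, rose by 1.39 ± 0.13 and LAMP1, a membrane glycoprotein, by 1.19 ± 0.11. The hydrolases CTSH, GAA and HEXA fell by 1.79 ± 0.12, 1.40 ± 0.14 and 1.12 ± 0.12 on the log2 scale. HEXA, a subunit of beta-hexosaminidase, stood at 64.9 and 89.2 CPM in untreated WT, 32.6 to 36.5 in the knockouts, and 87.8 and 105 in irradiated WT, so that the knockouts were below both kinds of WT cells. Against irradiated WT 1 lysosomal gene was higher (0 without irradiated WT replicate 2) and 12 were lower. Over all genes 9.16% were higher and 10.3% lower there. The 7 that fell became 11 without untreated replicate 1 and 4 without untreated replicate 2, and those 12 became 7 without irradiated WT replicate 1.

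Of 40 cytosolic ribosomal protein genes 4 rose and 10 fell against untreated WT, with a median of -0.20. Over all genes 22.0% rose and 23.2% fell, so the fallen were near their share. Against irradiated WT 20 were higher and 20 did not pass, with a median of 0.45, where 9.16% of all genes were higher. RPS3, of the small subunit, stood at 2006 and 2639 CPM in untreated WT, 2067 to 2648 in the knockouts, and 1303 and 1421 in irradiated WT. RPS19 rose by 0.59 ± 0.14 and RPL5, which also restrains MDM2, fell by 0.71 ± 0.14 on the log2 scale. The 10 that fell became 17 without untreated replicate 1 or STING KO replicate 2 and 2 without untreated replicate 2, and the 4 that rose became 1 without untreated replicate 1, either cGAS KO replicate or STING KO replicate 2. The 20 became 8 without irradiated WT replicate 1 and 9 without replicate 2. With limma on the deposited FPKM 24 fell.

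Of 19 actin and YAP target genes 9 rose and 2 fell. F3, the start of coagulation, went from 62.8 and 75.3 to between 267 and 529 CPM and CYR61, a matrix protein, rose by 2.23 ± 0.42, while AXL, a receptor kinase, fell by 1.96 ± 0.25 on the log2 scale. Of 21 immediate early and AP-1 genes 5 rose and 5 fell, counts near the shares of all genes (22.0% and 23.2%). EGR1, a factor induced by growth signals, stood at 243 and 145 CPM in untreated WT, 32.3 to 45.8 in the knockouts, and 38.8 and 47.4 in irradiated WT. DUSP6, a phosphatase of ERK, and FOS fell by 1.07 ± 0.10 and 0.85 ± 0.12, and JUN and KLF6 rose by 1.33 ± 0.17 and 1.54 ± 0.19.

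Of 12 EGF receptor family genes 5 rose and 3 fell, where 22.0% of all genes rose and 23.2% fell. Without either untreated replicate 3 rose, near that share. EPGN, a ligand of the receptor, stood at 38.5 and 29.6 CPM in untreated WT, 244 to 274 in the knockouts, and 127 and 59.6 in irradiated WT, a change of 2.92 ± 0.39. AREG, another ligand, rose by 0.45 ± 0.14, lost without untreated replicate 1 (adjusted p = 0.15), with limma (0.23), with the 4 knockout libraries as 1 group (0.11) and with only the groups compared (0.066). LRIG1 and ERRFI1, both inhibitors of the receptor, fell by 2.34 ± 0.23 and 1.14 ± 0.12 on the log2 scale and were lower than in irradiated WT by -1.58 ± 0.23 and -0.93 ± 0.12. Of 21 TGF-beta and activin genes 4 rose and 6 fell, also near those shares. FST, an activin antagonist, rose by 2.21 ± 0.28 and INHBA, the activin A subunit, by 1.76 ± 0.37, while ID1, a target of BMP signals, and SMAD3, a signal transducer, fell by 1.54 ± 0.19 and 0.74 ± 0.12.

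Several of the strongest falls were of genes with next to no counts in either knockout line. PYCARD, the adaptor ASC that assembles inflammasomes (16:31212806-31214773 on hg19, an interval shared by 2 genes), had 83 counts in untreated WT and 1 in the 4 knockout libraries, a ratio of 0.00549 (counting interval 1.4e-04 to 0.0314). AUTS2, a neurodevelopmental gene (7:69063905-70258054), had 76 and 1 counts, NLGN4X, a synaptic adhesion gene, 246 and 2, and PLCB4, a phospholipase (20:9049410-9461889), 119 and 1. Irradiated WT held 6.32 and 5.99 CPM of PYCARD, 3.57 and 2.96 of AUTS2, 6.80 and 6.64 of NLGN4X and 8.45 and 9.31 of PLCB4. These genes were thus present in WT cells with and without radiation and near 0 in both lines.

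Other genes of this kind were the zinc finger genes ZNF829, ZNF568 and ZFP82, the molybdenum cofactor gene MOCS1 and NUP210, a nuclear pore gene. NUP210 went from 47.5 and 28.9 CPM to between 0.309 and 0.693, and SERPINA3, an acute-phase inhibitor, from 601 and 422 to between 3.69 and 11.9. SERPINA3 was also low in irradiated WT given a CDK1 inhibitor (CDK1i), at 26.2 and 6.95 CPM, against 286 and 243 in irradiated WT with DMSO. Another clone, XRCC4 KO cells at 5 days after 10 Gy, was read beside them. It had 0 counts of PYCARD, AUTS2, NLGN4X and ZFP82 in both libraries, 2.00 and 1.25 CPM of PLCB4 and 2.08 and 2.22 of MOCS1. TMPRSS15, an intestinal protease, stood at 5.34 and 3.24 CPM in untreated WT, no more than 0.0618 in the cGAS and STING KO libraries, and 218 and 229 in XRCC4 KO. The lines cannot be told apart from the treatment for these genes in the comparison with untreated WT. The near-silent genes shown across lines were picked after their values were seen.

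**Figure D4:**
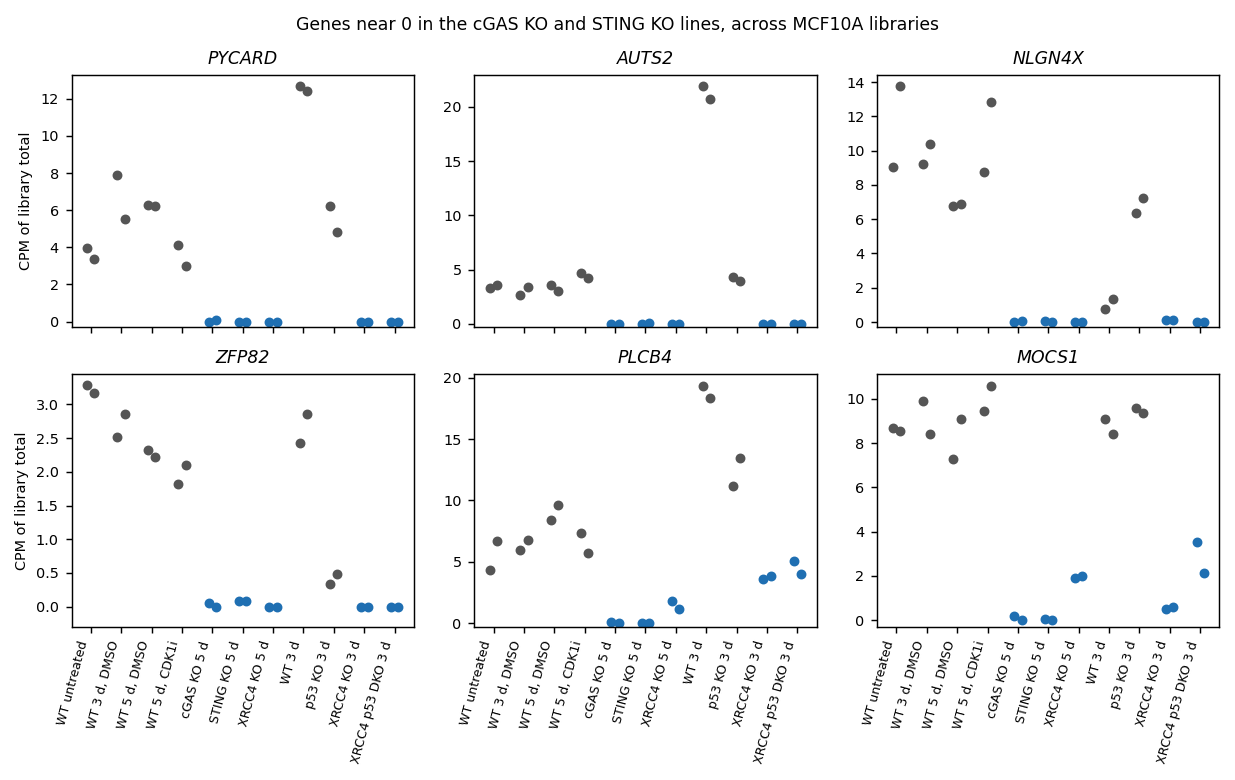
CPM of the library total (y axis) of 6 genes in 11 groups of MCF10A libraries (x axis), 1 point per library, named by line, day after 10 Gy and any drug or vehicle; cGAS, STING and XRCC4 knockouts are blue. PYCARD is at or near 0 in each of those knockouts and at 6.21 and 4.84 in p53 KO cells.

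Few genes were called between the 2 knockout lines, from 2 libraries each. In cGAS KO 11 genes (0.0724%) were higher and 10 (0.0658%) lower than in STING KO, with 744 at an unadjusted p below 0.05. The mean log2 CPM of interferon-stimulated genes was 5.49 and 5.35 in cGAS KO and 4.85 and 4.22 in STING KO, with 0 of the 53 called. MB21D1 and TMEM173, the 2 targets, were among them at -3.30 and 2.76. ZNF790, a zinc finger gene on chromosome 19, stood at 0.0618 and 0 CPM in cGAS KO, 3.53 and 2.85 in STING KO, and 7.32 and 4.04 in untreated WT. JAM3, a junction protein, stood at 2.72 and 1.91 CPM in cGAS KO, 0.157 and 0.178 in STING KO, and 8.35 and 11.7 in untreated WT, so that both lines were low and STING KO lower. PCYT1B, an enzyme of phosphatidylcholine synthesis, had 3.53 and 3.11 CPM in STING KO and at most 0.178 in cGAS KO, untreated and irradiated WT. CPPED1, a phosphatase, stood at 48.3 and 36.5 CPM in STING KO, 10.8 and 9.61 in cGAS KO, and 14.1 and 16.1 in untreated WT. The count of 21 became 370 without a filter on low counts and 62 with DESeq2. It became 4 without cGAS KO replicate 1, 3 without cGAS KO replicate 2, 3 without STING KO replicate 1 and 10 without STING KO replicate 2. With only the groups compared the calls of PCYT1B (adjusted p = 0.067), ZNF790 (0.067) and JAM3 (0.11) were lost, and that of CPPED1 was lost without cGAS KO replicate 1 (0.097), cGAS KO replicate 2 (0.12) or STING KO replicate 1 (0.073).

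**Figure D5:**
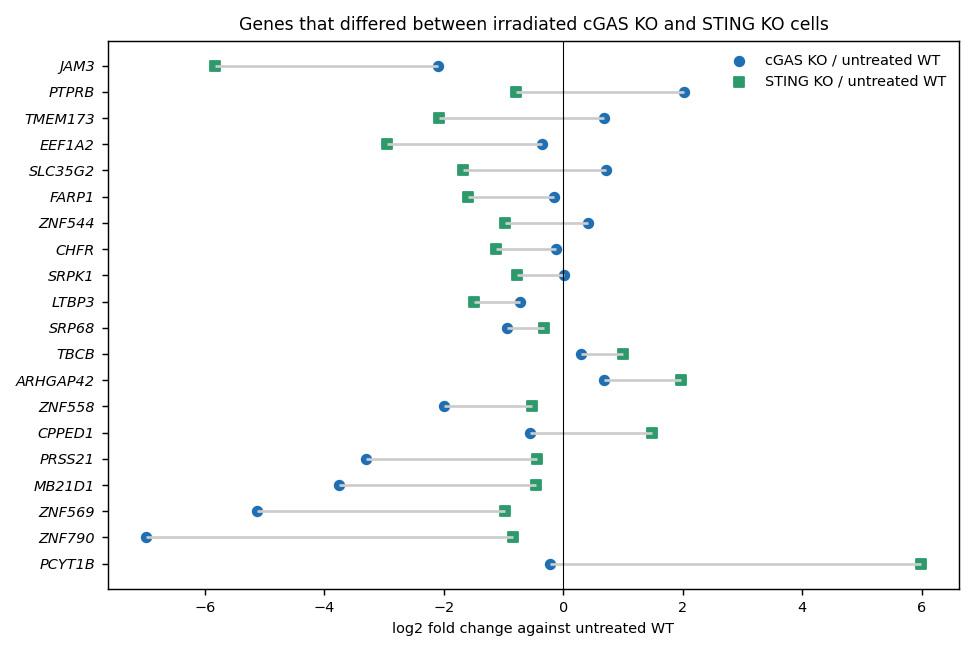
Log2 fold change against untreated WT (x axis) in irradiated cGAS KO (circles) and irradiated STING KO cells (squares) for 20 of the 21 genes (rows, the other 1 is not shown) that differed between the 2 lines at an adjusted p below 0.05, each from 2 libraries per group. The targets lie at -3.76 and -0.46 for MB21D1 and at 0.67 and -2.08 for TMEM173.

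Against irradiated WT, 1392 genes (9.16%) were higher and 1562 (10.3%) lower in the irradiated knockouts, with a median of -0.02, and limma called 416 higher and 802 lower. Here radiation is shared and line, clone and named vehicle differ. The total of 2954 became 1245 without irradiated WT replicate 1, 1274 without replicate 2, and 1814 and 1830 without cGAS KO replicate 1 or 2. Lower genes included the interferon-stimulated, antigen presentation and lysosomal members given above, and higher ones the ribosomal protein, cholesterol and basal keratin members. Cholesterol genes had a mean log2 CPM of 7.11 to 7.52 in the knockouts and 6.70 and 6.50 in irradiated WT with DMSO. They stood at 7.23 and 7.25 in XRCC4 KO, and at 7.30 and 6.67 in irradiated WT with CDK1i. Ribosomal protein genes stood at 9.86 to 10.21 in the knockouts, 9.60 and 9.68 in irradiated WT with DMSO, and 10.51 and 10.49 in XRCC4 KO. These 2 rises were thus not particular to the cGAS and STING KO lines. EPGN was higher by 1.47 ± 0.35, lost without irradiated WT replicate 2 (adjusted p = 0.13).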

How the data were processed

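RNA-seq libraries were read from 2 tables of all 32 samples. Estimated counts per gene, not normalized, were deposited by the authors, as were FPKM values. Per the submitters' processing notes, bcl2fastq, FastQC, STAR, Cuffnorm and DESeq2 were used with build hg19, and the sources used here do not say which of them made which table. The count table's locus starts count from 0 and are printed with 1 added.

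The deposited estimated counts were rounded to whole numbers and tested with edgeR 4.0.16 (R 4.3.3): TMM factors, filterByExpr by group, the robust quasi-likelihood test, two-sided, with Benjamini-Hochberg adjustment over the 15190 of 60332 genes that passed the filter. The fit held 14 libraries of 7 groups (untreated WT, irradiated WT with DMSO at 3 and 5 days or with CDK1i at 5 days, and cGAS, STING and XRCC4 KO at 5 days), which shared 1 estimate of the spread, and the tested contrast was the mean of the cGAS KO and STING KO coefficients minus that of untreated WT. An exact permutation test of 4 against 2 libraries, made two-sided by doubling, cannot go below a p of 0.133, so none is given. The scripts were tested on simulated data. Intervals of count ratios are exact 95% intervals and, like the floor of 3 counts, cover counting error only. Promoters came from RefSeq tables for GRCh38.p14, matched by symbol.

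Alternatives were other size factors, no filter, only the groups compared, the 4 knockout libraries as 1 group, DESeq2 1.42.0, limma 3.58.1 on log2(FPKM + 1) where the mean deposited FPKM was at least 0.5, a replicate block and each library left out. The crossed block and the list counts against irradiated WT were added after seeing the data. Members, gene lists and tests were chosen with earlier results of these data known. Genes to name were the knockout targets, anchor genes of each list, the most changed called genes without overlap between libraries (4 a list and 10 over all genes, each way, the latter at a mean of at least 1 CPM), and genes that differed between lines or from irradiated WT. Any named outside that rule were chosen after their values were seen.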

Additional observations from a re-analysis of the deposited data

Results flagged for a closer look

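The irradiated cGAS and STING knockout lines differed from each other in 21 genes by the test of the line difference (edgeR, adjusted p below 0.05). The log2 difference, cGAS KO minus STING KO, was -3.30 for MB21D1 and 2.76 for TMEM173, the targeted genes. STING KO was higher in PCYT1B (-6.20), CPPED1 (-2.05) and the zinc finger genes ZNF790 (-6.14) and ZNF569 (-4.16). cGAS KO was higher in JAM3 (3.73), PTPRB, a vascular phosphatase (2.81), SLC35G2, a solute carrier (2.40), ZNF544 (1.40), SRPK1, a splicing kinase (0.79), and LTBP3, a binding protein of latent TGF-beta (0.76). These differences rest on 2 libraries a line. PTPRB, SLC35G2, SRPK1, LTBP3, PCYT1B and ZNF569 lost the call whichever of the 4 libraries was left out, with adjusted p from 0.058 to 0.49. JAM3 lost it without any but cGAS KO replicate 2, ZNF544 and CPPED1 without any but STING KO replicate 2, and ZNF790 without cGAS KO replicate 2 (0.055). With only the groups compared the calls of these genes were lost, apart from CPPED1. SRPK1 stood at 172 and 172 CPM in cGAS KO, 98.5 and 100 in STING KO, and 170 and 171 in untreated WT.

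The knockouts and irradiated WT, both at 5 days after 10 Gy, differed in 2954 genes by the test of that difference. Some named genes had estimates of opposite sign against untreated WT in knockout and in irradiated WT cells. Their log2 difference, knockouts minus irradiated WT, was -7.50 for LAMP3, -4.43 for CD74, the class II invariant chain, -4.37 for CA9, -4.28 for HLA-B, -4.12 for UBE2L6, -3.83 for CIITA, -3.60 for PSMB9 and -3.09 for CXCL8. Against untreated WT, LAMP3 (adjusted p = 0.30), CD74 (0.14), CA9 (0.20) and CXCL8 (0.26) did not pass in the knockouts, so no change in that direction is shown for them. CXCL8 stood at 91.5 and 154 CPM in irradiated WT and 8.62 to 21.0 in the knockouts, and its call was lost when any 1 of these 6 libraries was left out. CD74 stood at 4.40 and 5.10 CPM in irradiated WT and 0.0866 to 0.356 in the knockouts. Clone, targeted gene and named vehicle differ together here and cannot be told apart.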

How the results depend on the processing

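The 6874 genes called against untreated WT stayed within 1.5 times under each alternative (4873 with limma to 7090 without a filter, and 5458 to 6419 with 1 library left out). Genes called in cGAS KO (5618) were 3632 with limma and 2911 to 4767 with 1 library left out, and those in STING KO (5764) were 3110 with only the groups compared and 3603 to 4931. The 21 that differed between the lines were 370 without a filter, 62 with DESeq2, 7 with limma, 7 with only the groups compared and 3 to 10 with 1 library left out. The 2954 against irradiated WT were 1218 with limma and 1245 to 2413 with 1 library left out. The causes were not tested. Same-numbered libraries of the groups compared did not all deviate together (r of deviations -0.02 for untreated and cGAS KO, -0.13 for untreated and STING KO, 0.12 for the 2 knockouts, -0.01 and -0.15 for irradiated WT with cGAS KO and STING KO), while those of WT groups did (0.25 to 0.44), so the numbers were not taken to pair knockout with WT libraries. A replicate block gave 6932, 5726, 5871, 20 and 3039, in the order above, and ended the calls of SERPINB4 (adjusted p = 0.064), KRT4 against irradiated WT (0.066) and PTPRB between lines (0.057). With the STING KO numbers crossed, the block gave 6242 in STING KO. Genes under about 1 CPM rest on few counts, and groups of 2 libraries limit every test.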

Other observations

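Zinc finger genes on chromosome 19, a set chosen after values were seen, held several of the near-silent genes. Of 205 tested, 54 (26.3%) were higher and 42 (20.5%) lower in the knockouts than in untreated WT, against 22.0% and 23.2% of all genes. The median change of the set was 0.10, so it was not lower as a whole. By at least 8-fold 13 (6.34%) were lower, against 1.63% of all genes and 2.34% of 256 zinc finger genes elsewhere. No test of that share was run.

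PYCARD and AUTS2 were also read in MCF10A libraries labelled 3 days after 10 Gy with ATRi or with no vehicle or drug, on the scale of CPM of the library total. PYCARD stood at 12.7 and 12.4 in WT, 6.21 and 4.84 in p53 KO, and 0 in every XRCC4 KO and double knockout library. AUTS2 stood at 21.9 and 20.7 in WT, 4.37 and 3.93 in p53 KO, and no more than 0.0602 in XRCC4 KO.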
